A study of Mus musculus with 99 samples.

Results

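The genes described here encode respiratory complexes II to V: every gene whose array symbol begins with Sdha, Sdhb, Sdhc, Sdhd, Uqcr, Cyc1, Cox4 to Cox8 or Atp5, each read from its brightest probe set. The rule gave 48 of 11725 named genes: 4 subunits of complex II, 8 of complex III, 16 of complex IV, 17 of complex V, and the 3 assembly factors Sdhaf1, Sdhaf2 and Sdhaf4, whose symbols share the Sdha prefix. Of the 48, 46 passed a filter on mean level (above 3.59 log2 units, the 40th percentile of all probe sets) and were tested, among 7513 genes in all. Cox4i2 and Cox7c did not pass, and each was read from a single dim probe set. Heart RNA from untreated male mice on chow was hybridised to 99 arrays, with 1 array per strain and no replicate array of any strain. The protocol gives an age of 16 weeks, whereas the age label of the arrays runs from 16 to 113 weeks. The groups were 28 classical inbred strains, 30 BXD strains (recombinant inbred from C57BL/6J and DBA/2J), 15 AXB and 13 BXA strains (from A/J and C57BL/6J, crossed in both orders), 11 BXH strains (from C57BL/6J and C3H/HeJ), CAST/EiJ and B6cC3-1/KccJ. The 3 AXB19 strains were averaged to 1 family and so were BXD24/TyJ and BXD24/TyJ-Cep290<rd16>/J, which differ by the named Cep290 allele, leaving 29 BXD and 26 AXB and BXA families. One further BXD strain, BXD29-Tlr4<lps-2J>/J, carries a named Tlr4 allele. The labels do not say how many hearts stand behind an array. Every p-value rests on the spread between families, and with 1 array per strain the strain and technical parts of that spread are not separable.

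Oxidative phosphorylation runs in the inner mitochondrial membrane. Complex II (succinate dehydrogenase) passes electrons from succinate to ubiquinone, complex III passes them on to cytochrome c, complex IV reduces oxygen, and complex V (ATP synthase) uses the resulting proton gradient to make ATP. The heart is among the tissues richest in these complexes, and several complex IV subunits have a striated muscle isoform (Cox6a2, Cox7a1, Cox8b) beside a widely expressed one (Cox6a1, Cox7a2, Cox8a).

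Sequence upstream of the start site was available for 36 of the 48 members, in 39 windows of 250 bases (RefSeq, build GRCm38.p6). The motif of nuclear respiratory factor NRF1, written GCGCNTGCGC and searched on both strands, was found in 7 of the 39 windows (17.9%), against 7.96% of windows of all tested genes and 3.74% of all 32851 windows of the same length. The windows with a match belonged to Atp5c1, Atp5g2, Atp5h, Atp5k, Cox6a1, Sdha and Sdhd. Stretches are shown for 3 of them whose values recur below, with the motif in capitals, 5′ to 3′, all from the minus strand: chr13:74350241-74350358 for Sdha, chr5:115349046-115349140 for Cox6a1 and chr15:102671060-102671109 for Atp5g2.
Sdha: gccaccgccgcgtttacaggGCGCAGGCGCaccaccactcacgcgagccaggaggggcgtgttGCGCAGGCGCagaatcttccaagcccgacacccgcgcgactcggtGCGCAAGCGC
Cox6a1: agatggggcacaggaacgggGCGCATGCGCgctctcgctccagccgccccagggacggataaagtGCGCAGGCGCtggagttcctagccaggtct
Atp5g2: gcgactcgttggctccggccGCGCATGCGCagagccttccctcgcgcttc
Sdha carried 3 matches, Cox6a1 carried 2 and Atp5g2 carried 1. Such a match describes letters in the reference genome, not binding in these hearts. The GABP motif CCGGAAGT was found in 2 of the 39 member windows (Uqcr11 and Atp5h; 5.13%, against 5.86% of windows of tested genes and 2.88% of all windows), the ERR motif TNAAGGTCA in 1 (Atp5g3; 0.767% and 1.14%) and the YY1 motif AAGATGGC in 1 (Atp5j; 2.10% and 1.56%), each searched on both strands. Only the Atp5h window held matches of 2 motifs, and they did not overlap.

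The values are deposited log2 levels after RMA, with array medians between 3.97 and 4.07. The cardiac genes Myl2, Tnnt2 and Tnni3 were high on every array (Myl2 from 13.39 to 13.65). On 42 of 99 arrays the mean of a marker list of another organ stood at least 2 log2 units above its median: airway on 30 arrays, liver on 14, skeletal muscle on 10, squamous epithelium on 7 and thymus on 3. These arrays were 11 of 28 classical, 11 of 30 BXD, 11 of 28 AXB and BXA and 8 of 11 BXH arrays, together with CAST/EiJ. The Gapdh control difference, 3′ minus 5′ probe set, averaged −0.22 ± 0.085 (SD) in BXD, −0.31 ± 0.082 in AXB and BXA, −0.31 ± 0.11 in BXH and −0.34 ± 0.083 in classical strains. The array title numbers of BXH strains (3 to 394) did not overlap those of BXD (473 to 670) or of AXB and BXA (481 to 683), so panel and title range cannot be told apart in those comparisons. The age label runs from 16 to 113 weeks while the protocol gives 16 weeks, and it was not used. By that label BXH (16 to 50 weeks) did not overlap BXD (56 to 109), AXB (58 to 113) or BXA (67 to 110). Panel and labelled age therefore cannot be told apart in those comparisons either. In whole-heart RNA, fewer cells of a type and less RNA per cell cannot be told apart.

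Respiratory complex transcripts had small SDs between strains. Over the 28 classical strains the median SD of the 46 members was 0.079 log2 units (jackknife SE over strains 0.0033), against 0.23 for all 7513 genes tested, and 43 of 46 lay below that median. In the panels the members' median SD was 0.081 in 29 BXD families, 0.068 in 26 AXB and BXA families and 0.082 in 11 BXH strains, against 0.21, 0.20 and 0.22 for all genes tested. Bright probe sets vary less on these arrays, and most members are bright: 39 of the 46 had a mean level of at least 10. Among the 427 genes at that level, the 39 members had a median SD of 0.077 over classical strains, against 0.14 for all 427. The ceiling of the scale was near for some of them, since the highest value in the whole table was 13.70 and Cox5b, a nuclear-encoded complex IV subunit, reached 13.17. Near-isogenic arrays gave the only spread within a family: a median SD of 0.061 for the members among the 3 AXB19 arrays and 0.056 between the 2 BXD24 arrays, against 0.20 and 0.13 for all genes tested and 0.11 and 0.073 for the 427 bright genes.

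**Figure D1:**
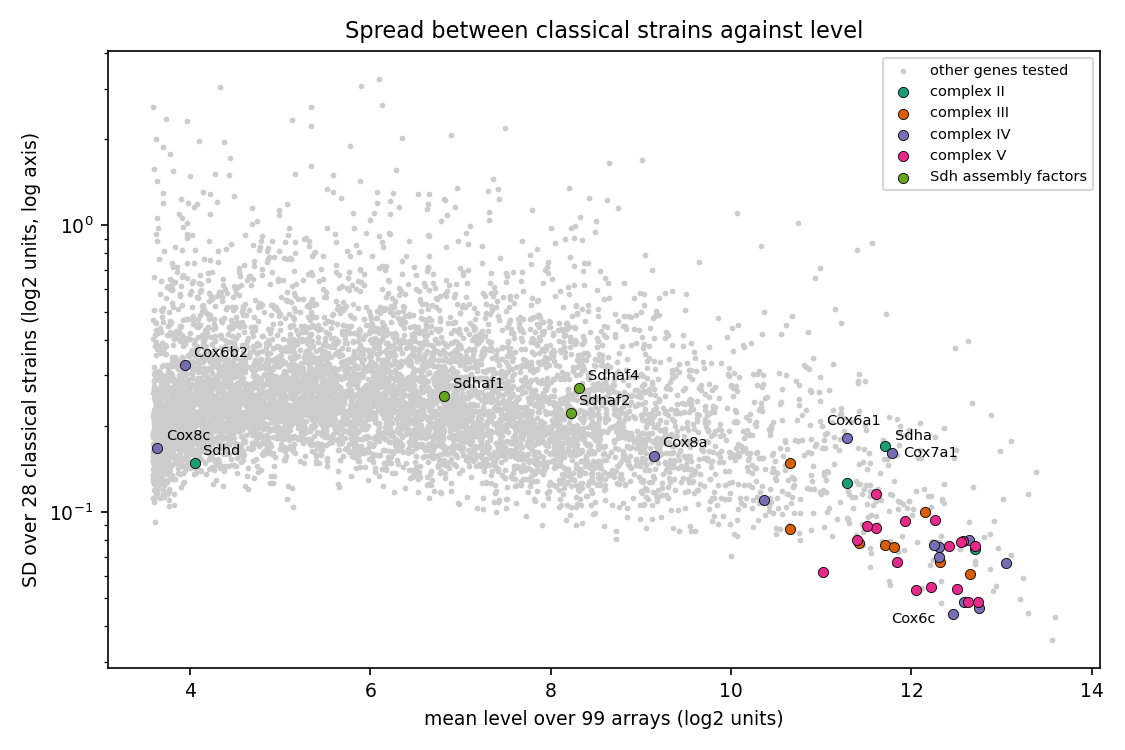
Each point is a gene, with its mean level over 99 arrays (log2 units) on the x axis and its SD over 28 classical strains (log2 units, log axis) on the y axis; grey points are other tested genes and colours mark the complexes. Most members sit at levels of 10 or more with an SD near their median of 0.079, while Cox6b2 and the assembly factors Sdhaf1, Sdhaf2 and Sdhaf4 sit at lower levels with SDs between 0.22 and 0.33.

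The 4 steadiest members over classical strains were 3 complex IV subunits and 1 complex V subunit. Cox6c, a small structural subunit, ran from 12.36 in KK/HlJ through a median of 12.46 to 12.55 in RIIIS/J (SD 0.044). In BXH its SD was 0.10, and its second probe set, at a mean level of 8.20, had an SD of 0.18 over classical strains. Cox4i1, the widely expressed form of the regulatory subunit 4, ran from 12.68 in LG/J to 12.84 in C58/J (SD 0.046). Atp5c1, the gamma subunit of the central stalk of ATP synthase, had an SD of 0.048, from 12.53 to 12.69. Cox6b1 had an SD of 0.049, from 12.44 to 12.65. For Cox4i1 the SD over AXB and BXA families was 0.026, the smallest of any member in any group.

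The 4 complex II genes had a median SD of 0.14 over classical strains, against 0.078 for complex III, 0.078 for complex IV and 0.076 for complex V. Sdha, the flavoprotein subunit that oxidises succinate, ran from 11.44 in C3H/HeJ through a median of 11.72 to 12.01 in C57BL/6J (SD 0.17). Sdhb, the iron-sulfur subunit, ran from 12.50 in BALB/cJ to 12.82 in MA/MyJ (SD 0.075). Sdhc, a membrane anchor, had an SD of 0.13, and Sdhd was read from a dim probe set (mean 4.06, SD 0.15). Over classical strains the 3 assembly factors were the most variable members above the dim range. This order did not hold in every panel: Cox6a1 had a larger SD in BXH (0.29), and in AXB and BXA Sdhaf4 (0.13) lay below Cox6a1 (0.19). Sdhaf2, which helps attach FAD to Sdha, ran from 7.83 in C3H/HeJ to 8.67 in BALB/cJ (SD 0.22), Sdhaf4 from 7.57 in LP/J to 8.74 in AKR/J (SD 0.27) and Sdhaf1 from 6.15 in BALB/cJ to 7.27 in I/LnJ (SD 0.25).

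The widely expressed isoforms of complex IV were not uniformly more variable than their muscle counterparts. Cox6a1 ran from 10.80 in LP/J through 11.24 to 11.54 in C3H/HeJ (SD 0.18), whereas Cox6a2 ran from 12.43 to 12.79 (SD 0.080). Cox8a ran from 8.78 in BUB/BnJ to 9.52 in A/J (SD 0.16), whereas Cox8b ran from 12.11 to 12.41 (SD 0.070). For subunit 7a the order was the other way: Cox7a1 ran from 11.32 in 129X1/SvJ to 12.07 in RIIIS/J (SD 0.16), and Cox7a2 from 12.09 to 12.39 (SD 0.077). In each pair the more variable isoform was read at the lower level, and bright probe sets vary less on these arrays. CAST/EiJ, a wild-derived strain outside the groups, had Cox7a1 at 11.20, below all 28 classical strains, Cox6a1 at 11.76 and Cox8a at 9.66, both above all 28. This single array carried markers of another organ. It also had the lowest mean of the cardiomyocyte list of all arrays (12.47, against a median of 12.76). Whether strain or tissue content accounts for its isoform levels was not tested. Cox7a2l, a factor of supercomplex assembly, had an SD of 0.11 (10.10 to 10.55). The isoforms known from testis were dim: Cox6b2 had a mean of 3.95 with the largest SD of all members (0.33, from 3.22 in SWR/J to 4.46 in BTBR T<+> tf/J) and Cox8c a mean of 3.64 (SD 0.17). Cox4i2, the isoform known from lung and oxygen-sensing cells, had a mean of 3.26, below the filter.

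Complexes III and V held no member with an SD over 0.15 in classical strains. In complex III the SD rose from 0.061 for Uqcr10 to 0.15 for Uqcrb, which ran from 10.39 in SWR/J to 10.95 in RIIIS/J. In complex V it rose from 0.048 for Atp5c1 to 0.12 for Atp5g2, 1 of 3 genes for the same c-ring protein, which ran from 11.45 in SWR/J to 11.88 in NZB/BlNJ.

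Across strains the members had weak positive correlations with each other. The median Pearson correlation over the 1035 pairs of members was 0.18 in 28 classical strains, 0.17 in 29 BXD families, 0.16 in 26 AXB and BXA families and 0.073 in 11 BXH strains, against 0.0060, 0.0049, 0.0092 and 0.0098 over all pairs of tested genes. The list of 32 complex I genes gave 0.20, 0.17, 0.23 and 0.18. Pairs from the same array share its RNA quality and normalisation, so these are descriptions without a test. BALB/cJ was the lowest array, with 33 of 39 bright members below their median over the arrays (median deviation −0.095, against −0.043 for all 427 bright genes), and BXD9/TyJ was the highest (+0.070, against +0.021).

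Between BXD and AXB and BXA families, which differ in carrying DBA/2J or A/J alleles beside those of C57BL/6J, 3 respiratory complex genes were called lower in BXD. In limma fits over all 7513 genes with Benjamini-Hochberg adjustment, 3 of 46 members (Cox5a, Atp5g1 and Sdhb) fell in BXD and none rose, beside 14.6% of all genes called in either direction, 6.04% lower and 8.59% higher. Of the 427 bright genes 18.3% were called, 12.6% lower. Of the 46 differences 38 were below 0 (82.6%, against 44.5% of all genes and 61.4% of the 427 bright genes). The median difference was −0.032 for the members, +0.013 for all genes and −0.019 for the bright genes. The members' median moved to −0.0087 with the mean of the endothelial list as a covariate (20 of 46 above 0) and to −0.0043 in the upper title numbers (18 of 46 above 0). Without adjustment, 15 members had a p under 0.05, beside 28.7% of all genes. The largest difference of any member was 0.12 in size (Sdhaf2, adjusted p = 0.17).

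Cox5a, a nuclear-encoded complex IV subunit, ran from 12.11 through 12.27 to 12.42 in 29 BXD families and from 12.24 through 12.36 to 12.43 in 26 AXB and BXA families. The ranges overlapped, and the means differed by −0.074 ± 0.020 (SE; 1.05-fold lower in BXD, limma adjusted p = 0.0081). Its second probe set had means of 8.57 ± 0.11 (SD) in BXD and 8.58 ± 0.094 in AXB and BXA. With the mean of all probe sets of the gene, Cox5a was not called (−0.044, limma adjusted p = 0.14). Atp5g1, another gene for the c-ring protein, ran from 12.46 through 12.55 to 12.69 in BXD and from 12.42 through 12.61 to 12.72 in AXB and BXA families. Again the ranges overlapped, with a difference of −0.071 ± 0.021 (1.05-fold, adjusted p = 0.014). Sdhb ran from 12.48 through 12.70 to 12.77 in BXD and from 12.67 through 12.74 to 12.86 in AXB and BXA, a difference of −0.058 ± 0.020 (1.04-fold, adjusted p = 0.041). The single arrays of the parents lay in the same direction. DBA/2J was below A/J by −0.12 for Cox5a, −0.22 for Atp5g1 and −0.089 for Sdhb. Such a match was common, since parental and panel differences had the same sign for 71.7% of tested members and 65.9% of all genes. Just outside the threshold lay Atp5g2 (−0.082 ± 0.029, adjusted p = 0.050) and Atp5c1 (−0.049 ± 0.019, adjusted p = 0.064).

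By complex, all 4 complex II genes, 7 of 8 in complex III, 10 of 14 in complex IV and 16 of 17 in complex V had a difference below 0, with medians of −0.056, −0.029, −0.015 and −0.043. Among the muscle isoforms Cox6a2 differed by −0.0026, Cox7a1 by +0.033 and Cox8b by +0.019. Among their widely expressed counterparts Cox6a1 differed by −0.019, Cox7a2 by −0.034 and Cox8a by −0.10, and none of these 6 genes passed the test. With each array centred on its median, Cox8b turned to −0.013 and Cox7a1 to +0.0010.

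**Figure D2:**
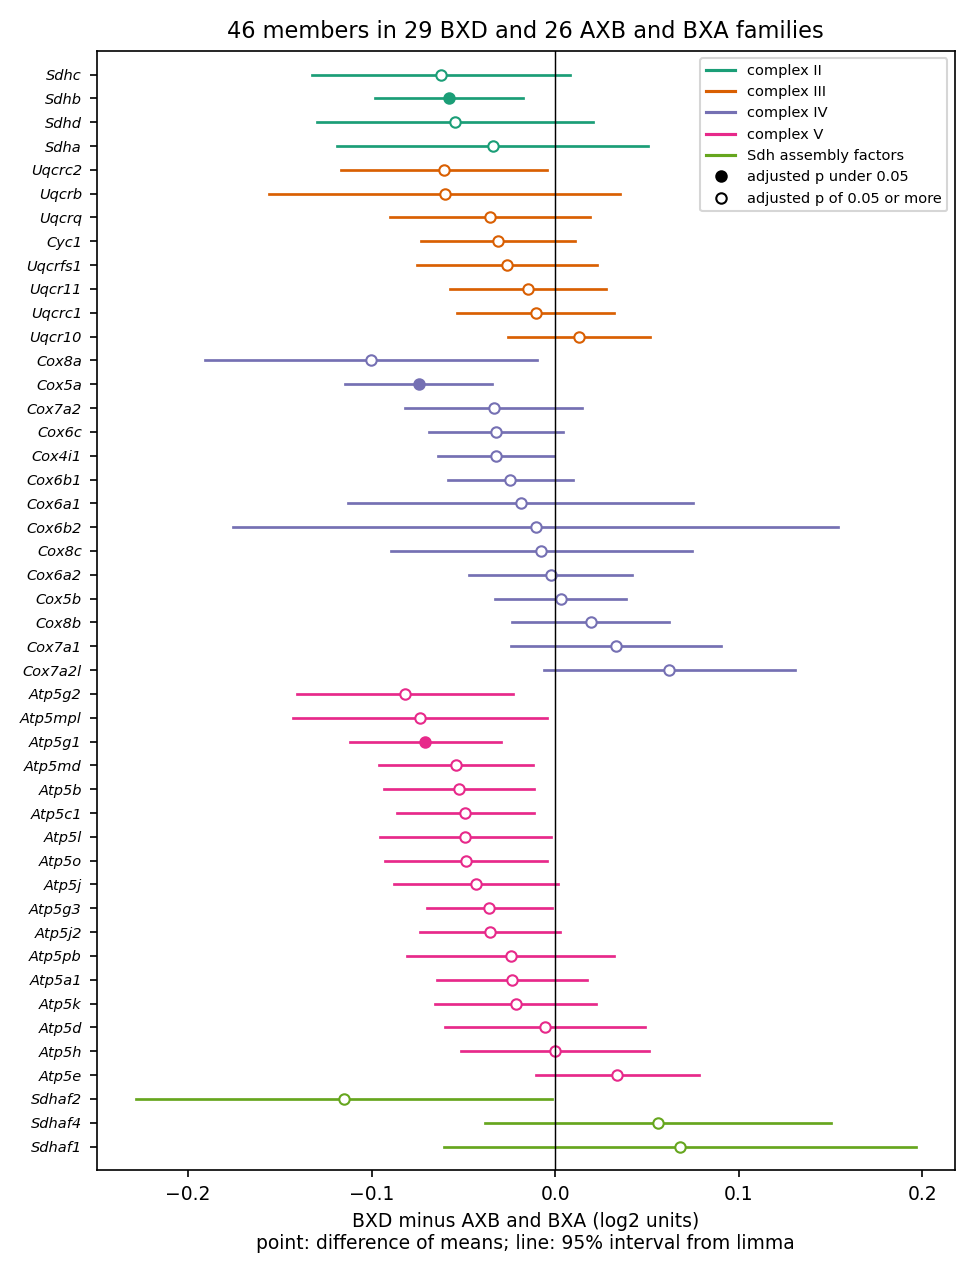
Each row is one of the 46 members, grouped by complex. The x axis is the mean of 29 BXD families minus the mean of 26 AXB and BXA families in log2 units, with the 95% interval from limma as a line. Filled points (Sdhb, Cox5a and Atp5g1) had an adjusted p under 0.05, and 38 of 46 points lie left of 0.

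The calls moved with how the arrays were treated. None of the 3 remained with the Gapdh control difference as a covariate (Cox5a −0.052, adjusted p = 0.16), with the mean of the endothelial marker list as a covariate (−0.044, adjusted p = 0.28) or without the arrays that carried markers of another organ (18 against 16 families, −0.057, adjusted p = 0.19). Calls over all 7513 genes fell as well in these settings, from 1099 to 405, 368 and 457. When each array was centred on its median, 17 members fell in BXD, and with trend and robust limma 8 were called, beside 1130 and 1097 of all 7513 genes. With centring the calls over all genes changed from 645 higher and 454 lower to 407 higher and 723 lower. Of the 8 endothelial markers, 5 rose in BXD (Cdh5, Emcn, Eng, Flt1 and Pecam1; the mean of the 8 ranged from 7.23 to 7.91 in BXD and from 6.93 to 7.64 in AXB and BXA), and of the 8 cardiomyocyte markers 1 fell (Pln, −0.096, adjusted p = 0.0038). With the mean of the cardiomyocyte list as a covariate, Cox5a was called (−0.060, adjusted p = 0.036), and Atp5g1 (−0.056, adjusted p = 0.057) and Sdhb (−0.051, adjusted p = 0.095) were not. Within title numbers, the Cox5a difference was −0.11 in the lower range (adjusted p = 0.048) and −0.040 in the upper range (adjusted p = 0.62). Atp5g1 differed by −0.10 and −0.042 in these ranges, and Sdhb by −0.045 and −0.072.

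Between BXH and BXD families, 2 members rose and 2 fell in BXH, beside 10.6% of all genes called (4.30% higher and 6.34% lower). Cox8a ran from 8.89 through 9.27 to 9.68 in 11 BXH strains and from 8.59 through 9.08 to 9.33 in 29 BXD families. BXH strains reached higher than any BXD family, and the difference was +0.23 ± 0.065 (1.17-fold, limma adjusted p = 0.016). Its second probe set had means of 9.25 ± 0.22 (SD) and 9.08 ± 0.16. Atp5g2 ran from 11.47 through 11.62 to 11.88 in BXH and from 11.22 through 11.52 to 11.71 in BXD, a difference of +0.13 ± 0.043 (1.10-fold, adjusted p = 0.039). Sdhaf1, which helps insert iron-sulfur clusters into Sdhb, ran from 6.18 through 6.67 to 7.01 in BXH and from 5.90 through 6.88 to 7.26 in BXD. The ranges overlapped, with a difference of −0.25 ± 0.083 (1.19-fold, adjusted p = 0.041).

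Uqcrc1, a core protein of complex III, was the member lower in BXH than in both other panels. It ran from 11.15 through 11.36 to 11.45 in BXH, from 11.26 through 11.43 to 11.53 in BXD and from 11.28 through 11.46 to 11.55 in AXB and BXA. The BXH strains lay at the lower end with overlap, and the differences were −0.097 ± 0.032 from BXD (adjusted p = 0.039) and −0.11 ± 0.032 from AXB and BXA (adjusted p = 0.030). Both comparisons share the BXH arrays. Uqcrc1 was the only member called between BXH and AXB and BXA, beside 6.52% of all genes (3.18% higher and 3.34% lower), and 10 members had an unadjusted p under 0.05 there, beside 20.6% of all genes. The call against AXB and BXA was lost with the brown fat list as a covariate (−0.095, adjusted p = 0.090), with the cardiomyocyte list (−0.085, adjusted p = 0.18) and in the 3 BXH and 16 AXB and BXA families without markers of another organ (−0.070, adjusted p = 0.77). Calls over all genes fell there from 490 to 330, 199 and 26. In that comparison the cardiomyocyte marker Ryr2 fell (−0.19, adjusted p = 0.035), and 4 of 6 macrophage and 4 of 6 airway markers rose in BXH. Against BXD all 4 calls were lost with the brown fat list as a covariate (Cox8a +0.16, adjusted p = 0.10), with the Gapdh covariate (Cox8a +0.20, adjusted p = 0.075; Atp5g2 +0.080, adjusted p = 0.26) and with the endothelial list (Cox8a +0.17, adjusted p = 0.14; Atp5g2 +0.063, adjusted p = 0.40). With these covariates calls over all genes fell from 799 to 498, 513 and 446. With each array centred on its median, Cox8a and Atp5g2 were called and Sdhaf1 (−0.23, adjusted p = 0.059) and Uqcrc1 (−0.073, adjusted p = 0.19) were not, while the calls over all genes changed from 323 higher and 476 lower to 400 and 335. Of 6 macrophage markers 5 rose in BXH against BXD, and of 6 airway markers 5 did. Of 8 endothelial markers Emcn (−0.26) and Flt1 (−0.50) fell, and of 3 erythroid markers Alas2 rose (+0.90). The airway list ranged from 3.31 to 11.18 in BXH and from 3.27 to 9.85 in BXD. In the 3 BXH and 18 BXD families without markers of another organ, Cox8a differed by +0.23 (adjusted p = 0.31) and Uqcrc1 by −0.061 (adjusted p = 0.64).

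**Figure D3:**
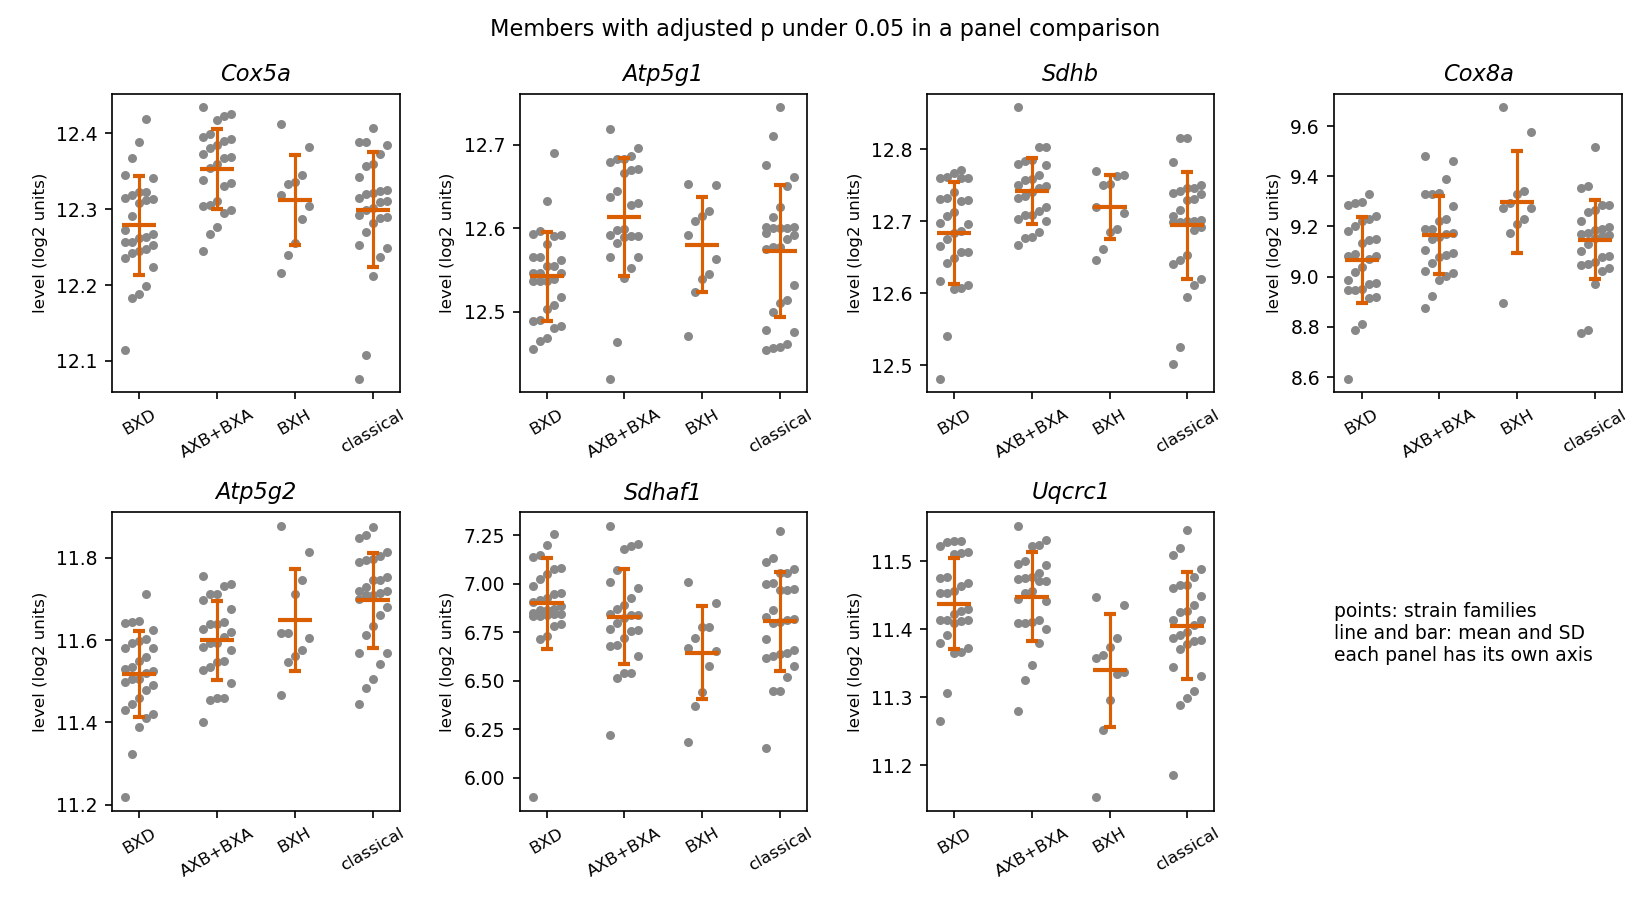
The 7 members with an adjusted p under 0.05 in a panel comparison are shown with 1 point per strain family and the mean and SD in orange, in log2 units with an axis of its own for each gene. The groups overlap for every gene; Uqcrc1 sits lowest in BXH (mean 11.34) and Cox8a highest there (mean 9.30).

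In the remaining comparisons no member was called. Between the reciprocal panels AXB and BXA (13 families each) 0 of 7513 genes were called (0.00%), with 786 genes and 2 members at an unadjusted p under 0.05. There too most member differences were below 0 (10 of 46 above 0, median −0.022, against a median of +0.011 for all genes). Above 0 were also only 7 of 32 complex I genes and 0 of 23 assembly factors, but 7 of 12 regulators of mitochondrial biogenesis. Atp5mpl, a small subunit of ATP synthase, averaged 12.23 ± 0.10 (SD) in AXB and 12.39 ± 0.13 in BXA, a difference of −0.16 ± 0.050 (SE, limma adjusted p = 0.30), and Sdhaf2 differed by −0.18 ± 0.078 (adjusted p = 0.44). Between BXH and the 28 classical strains 22 genes were called (0.293%) and no member was, with Cox8a alone under an unadjusted p of 0.05 (+0.15 ± 0.062, adjusted p = 0.30).

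Single arrays of the panel parents showed few large differences in these genes. A difference of at least 0.5 log2 units was found for 1 of 46 members between DBA/2J and C57BL/6J (against 22.2% of all genes), for none between A/J and C57BL/6J (13.4% of all genes) and for 2 between C3H/HeJ and C57BL/6J (22.0%). C57BL/6J was the higher parent for 31, 28 and 35 of the 46 members, against 49.1%, 47.3% and 46.8% of all genes and 57.1%, 54.6% and 56.4% of the bright genes. Each comparison uses the same C57BL/6J array, and no parent had a replicate. Sdhaf2 was 8.40 in C57BL/6J, 8.37 in A/J, 7.87 in DBA/2J and 7.83 in C3H/HeJ. Its second probe set was 7.11 in C57BL/6J, 6.62 in A/J, 6.80 in DBA/2J and 6.58 in C3H/HeJ, so there A/J was low as well. The Sdha level was 12.01 for C57BL/6J and 11.44 for C3H/HeJ. Cox8a lay just under the limit, at 9.52 in A/J and 9.02 in C57BL/6J.

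In the panels these members took values across and, for Sdhaf2, beyond the parents' levels. Sdhaf2 ran from 7.78 through 8.11 to 8.58 in BXD, with 14 of 29 families above the midpoint of the parents (8.13) and 6 outside the parents' range, and from 7.83 through 8.22 to 8.49 in BXH, with 8 of 11 strains above the midpoint and 3 outside the parents. In BXH its values left a gap between 7.91 and 8.12. On the second Sdhaf2 probe set only 3 of 11 BXH strains lay above the midpoint of the parents (6.85). Sdha ran from 11.45 through 11.70 to 12.00 in BXH, with 5 of 11 strains above the midpoint of 11.72. Its second probe set had the same parental order (11.47 and 10.94), with 2 of 11 strains above the midpoint, and was lower in BXH than in BXD (−0.15 ± 0.038, limma over all probe sets, adjusted p = 0.0085, where 10.3% of probe sets were called). The brightest Sdha probe set did not share this difference, with means of 11.69 in BXH and 11.69 in BXD. The genes whose values ordered the 29 BXD families most like Sdhaf2 were Slc25a13 (Spearman's rho 0.82), Rsl1d1 (0.80), Gfm2 (0.79), Ndfip1 (0.79) and Mrps23 (0.78), all on other chromosomes. Over only 11 BXH strains they were Septin9 (−0.96), Ube2b (0.96), Rab40c (−0.95), Trim28 (−0.95) and Hax1 (0.95) for Sdhaf2. For Sdha they were Ubxn1 (−0.96), Ssr4 (0.94), Gspt1 (0.92), Ube2w (0.92) and Mfsd14a (0.91).

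For Cox7a2l, Cox6a1 and Uqcr10, other probe sets showed parental differences of at least 0.5 that the brightest did not reach. For Cox7a2l, 1421772_a_at read 7.41 for C57BL/6J and 7.91 for DBA/2J, ran from 7.37 through 7.71 to 8.25 in BXD and had 18 of 29 families above the midpoint. It was higher in BXD than in AXB and BXA families (+0.13 ± 0.045, adjusted p = 0.033), whereas the brightest probe set differed by +0.062. For Cox6a1, 1417418_s_at was 8.92 in C57BL/6J, 9.51 in A/J and 9.57 in C3H/HeJ, and it was lower in BXD than in AXB and BXA (−0.15 ± 0.053, adjusted p = 0.046). The brightest Cox6a1 probe set was not called there, with means of 11.30 in BXD and 11.32 in AXB and BXA. The BXH6/TyJ array stood highest for both Cox6a1 probe sets (12.01 and 9.99). It also had the highest mean of the brown fat markers of all arrays (9.61, against 4.82 on the lowest). Without it, the SD over BXH fell from 0.29 to 0.20 for the brightest probe set.

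**Figure D4:**
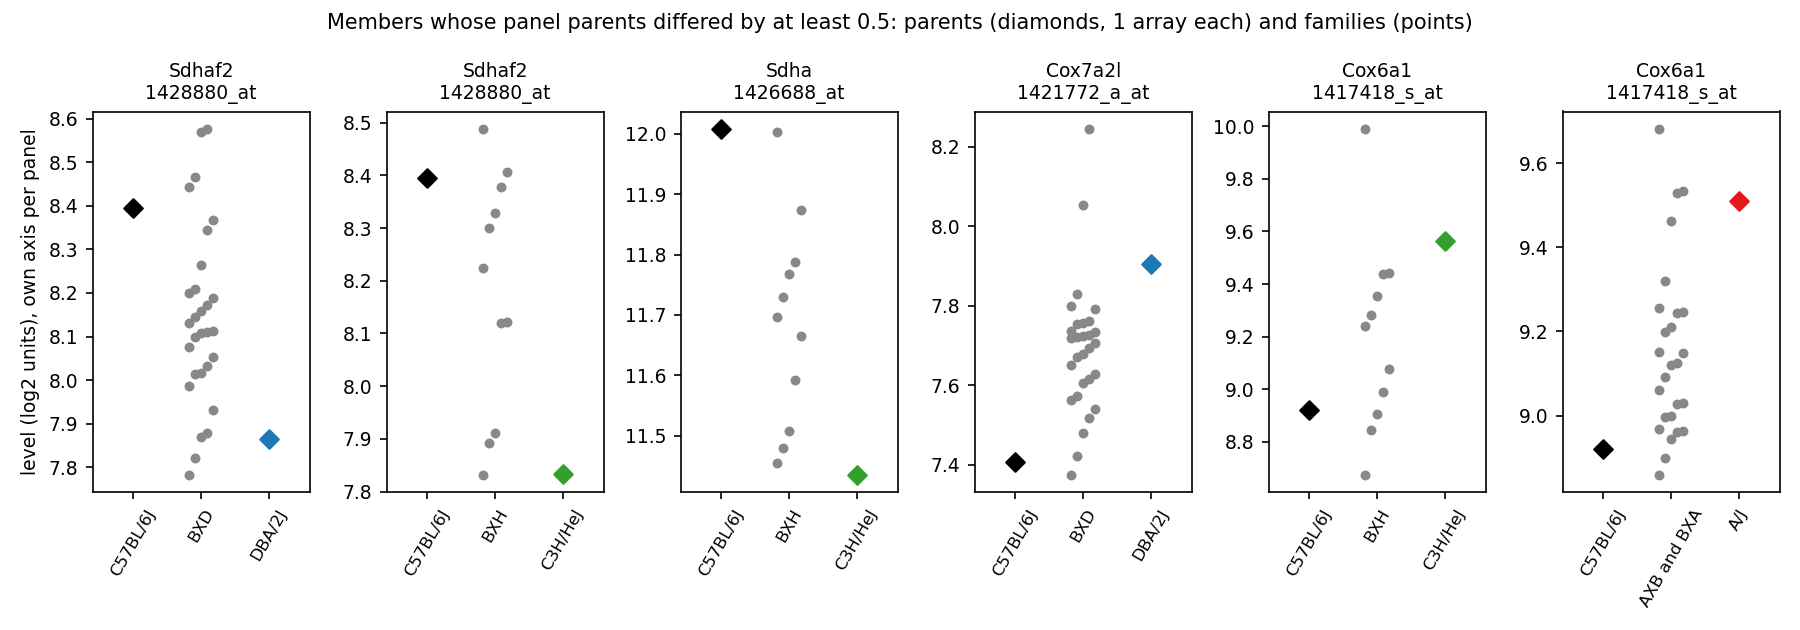
Diamonds are single arrays of the parents and grey points are strain families, in log2 units with an axis of its own for each panel. Families spread across the range of the parents for Sdhaf2, Sdha, Cox7a2l (1421772_a_at) and Cox6a1 (1417418_s_at), and a single BXH strain stands apart for Cox6a1 at 9.99.

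Uqcr10, a small subunit of complex III, was steady by its brightest probe set and split into clusters by its other 2. The brightest, 1424364_a_at, ran from 12.53 through 12.63 to 12.76 in classical strains, from 12.58 to 12.80 in BXD, from 12.54 to 12.77 in AXB and BXA and from 12.60 to 12.76 in BXH arrays. All groups overlapped, and no comparison called it. The probe set 1434340_at was 6.98 in C57BL/6J, 7.03 in DBA/2J, 7.11 in C3H/HeJ and 3.34 in A/J. All 30 BXD arrays (6.16 to 7.65) and all 11 BXH arrays (6.43 to 7.37) lay at the upper level. The AXB and BXA families split, with 10 of 26 above a gap between 4.10 and 6.63, namely 3 AXB and 7 BXA families. The lower edge of 4.10 is the average of the AXB19 arrays, which differed among themselves (below). Classical strains split too, with 8 of 28 at 6.75 to 7.11 and 20 at 3.13 to 3.69.

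The 8 classical strains at the upper level were C3H/HeJ, C57BL/6J, C57L/J, CBA/J, DBA/2J, LP/J, NZW/LacJ and SM/J. The third probe set, 1434341_x_at, whose suffix marks probes that may match other transcripts, put the same 8 strains at 7.18 to 7.85 and the other 20 at 4.38 to 5.50. CAST/EiJ lay between the levels at 4.83 on 1434340_at and within the lower level at 5.34 on 1434341_x_at. Of the 3 AXB19 arrays, AXB19a/PgnJ lay between the levels at 5.54 while AXB19/PgnJ and AXB19b/PgnJ were at 3.20 and 3.56 on 1434340_at. On 1434341_x_at AXB19a/PgnJ was at 6.45 while the other 2 were at 4.50 and 4.86, and their brightest probe set was at 12.67, 12.60 and 12.59.

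In a limma fit over 10875 probe sets, both were higher in BXD than in AXB and BXA families, by 2.05 ± 0.32 and 1.55 ± 0.25 (SE), where 14.1% of probe sets were called. They were also higher in BXH than in classical strains, by 2.52 ± 0.48 and 1.78 ± 0.36 (adjusted p = 0.012 and 0.019), where 0.221% were called. Against AXB and BXA the BXH values were higher by 2.07 ± 0.51 and 1.47 ± 0.39 (adjusted p = 0.012 and 0.019), where 5.60% were called. Between AXB and BXA the differences of −0.98 ± 0.63 and −0.86 ± 0.48 did not pass (adjusted p = 0.61 and 0.56). These fits average over clusters, so each difference mostly counts how many families lay at each level.

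Over the 26 AXB and BXA families, the genes ordered most like 1434340_at were Zmat5 (Spearman's rho 0.77), Ddx10 (0.72), Inhba (0.71), Sf3a1 (−0.69) and Ndufs3 (0.68). For 1434341_x_at they were Mrps24 (0.78), Inhba (0.72), Ascc2 (−0.71), Zmat5 (0.71) and Eef1d (0.69). In the RefSeq gene order (GRCm38.p6), Zmat5 and Ascc2 have no protein-coding gene between them and Uqcr10, and Sf3a1 and Mrps24 are on the same chromosome, with 7 and 18 such genes between. The rank order here mostly contrasts the 2 clusters and is a description. Whether the strains differ in the transcript or in the sequence under the probes was not tested.

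**Figure D5:**
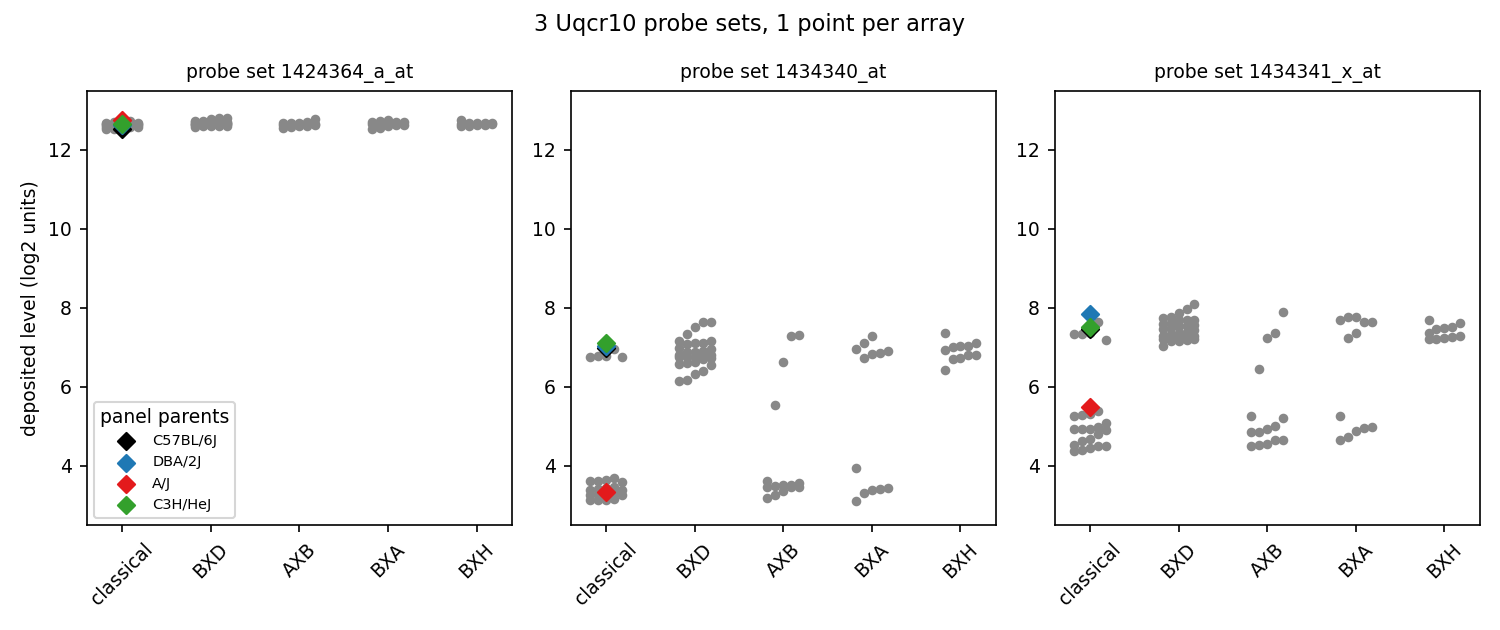
Each point is an array, with the deposited level in log2 units on the y axis and the strain group on the x axis, for the 3 Uqcr10 probe sets; coloured diamonds are the panel parents. The brightest probe set stays between 12.53 and 12.80 in these groups, while the others form 2 levels in classical, AXB and BXA strains, with AXB19a/PgnJ between them (5.54 and 6.45), and the upper level alone in BXD and BXH.

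The other lists had 3 of 23 assembly factors, 2 of 12 regulators, 1 of 9 carriers, 1 of 12 citric acid cycle genes and 4 of 32 complex I genes called between BXD and AXB and BXA, beside 14.6% of all genes. Of 23 tested assembly factors (the Sdhaf genes included), Cox18, which inserts a complex IV subunit into the membrane, rose in BXD against AXB and BXA (+0.54 ± 0.11, limma adjusted p = 4.3e-04), while Lrpprc, which stabilises mitochondrial mRNAs (−0.31 ± 0.062, adjusted p = 3.0e-04), and Ttc19, a complex III factor (−0.22 ± 0.054, adjusted p = 0.0044), fell. Cox18 was higher and Lrpprc lower in BXH than in AXB and BXA as well (+0.63 and −0.24), where Uqcc1, a complex III assembly factor, was lower (−0.47 ± 0.13, adjusted p = 0.021). Of 12 regulators of mitochondrial biogenesis Ppara rose in BXD (+0.31 ± 0.11, adjusted p = 0.040) and the transcription factor Tfb2m fell (−0.18 ± 0.047, adjusted p = 0.0050). Of 9 carriers Slc25a5, an ADP/ATP carrier, fell (−0.17 ± 0.055, adjusted p = 0.026), and of 12 citric acid cycle genes Idh3a fell (−0.12 ± 0.038, adjusted p = 0.029). Of the 32 complex I genes Ndufs4, Ndufs1 and Ndufa7 fell and Ndufa3 rose. The median differences of these lists were −0.0015 for assembly factors, −0.045 for regulators, −0.049 for carriers, −0.0085 for citric acid cycle genes and −0.031 for complex I, beside +0.013 for all genes.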

How the data were processed

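Heart total RNA of 99 mouse strains, 1 array per strain, was measured on Affymetrix HT_MG-430A arrays. The deposited log2 values of 22416 probe sets were made by the authors, and GCOS and RMA are named without version in the submitters' processing notes. The settings of either tool are not given in the sources used here. RMA quantile-equalises arrays, which hides shifts common to all genes, and log2 differences of very bright probe sets can be compressed.

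Platform annotation gave 17783 probe sets exactly 1 symbol, 284 several and 4349 none. Only those with 1 symbol were used, which left 11725 genes. Each gene was read from its probe set with the highest mean, except in the alternatives that averaged or fitted all its probe sets. No test compared the levels of different probe sets. The 7513 genes whose mean exceeded the 40th percentile of all probe sets were tested with limma 3.58.1 in R 4.3.3 (lmFit, eBayes, Benjamini-Hochberg under 0.05), fitting only the groups compared and averaging near-isogenic strains. No batch was available from the labels, so only the title number range was used as a split. The spread is the SD over strains, with a jackknife SE.

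All members are accounted for. Values are given for members called in any comparison, for the 6 with the largest and the 4 with the smallest SD over classical strains, for those whose panel parents differ by at least 0.5, and for the complex IV isoforms. For up to 3 members whose parents differ so, the 5 genes with the largest absolute Spearman's rho over the panel are named, and up to 3 called genes of each other list; endothelial, complex I and assembly factor genes beyond these 3 were added after their values were seen. The members and lists were chosen with earlier results of these data known. Covariates of marker lists, fits over all probe sets and the description of the remaining Uqcr10 probe sets were chosen after seeing the data. The fits were tested on simulated data. Tables and figures were made with Python 3.11.15, numpy 2.4.6, pandas 2.3.3, scipy 1.17.1 and matplotlib 3.10.9.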

Additional observations from a re-analysis of the deposited data

How the results depend on the processing

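No paired analysis was possible because the labels give no replicate numbers and no strain stands in more than 1 group. Counts of members called in BXD against AXB and BXA (3 as reported) became 0 without arrays with markers of another organ, with the Gapdh covariate, with the endothelial covariate and in upper title numbers, 1 with the cardiomyocyte covariate, 6 with the mean of all probe sets, 7 with every probe set fitted, 8 with trend and robust limma and 17 with arrays centred. That centring moved the median of all genes from +0.013 to −0.019, and the calls over all genes from 645 higher and 454 lower to 407 and 723. In the settings that left 0 members called, calls over all genes fell from 1099 to 457, 405, 368 and 126, in the order given. For BXH against BXD (4) the count was 2 with centring and 0 without other-organ arrays and with the Gapdh, brown fat or endothelial covariate. For BXH against AXB and BXA (1) it was 0 without other-organ arrays and with the brown fat or cardiomyocyte covariate, 2 with every probe set, 3 with the mean of probe sets and 4 with trend and robust. For BXH against classical strains (0) it was 1 with the mean of probe sets and with every probe set, in both cases Uqcr10. Where the count became 0 for BXH against BXD, calls over all genes fell from 799 to 80, 513, 498 and 446. For BXH against AXB and BXA they fell from 490 to 26, 330 and 199.
The median member SD became 0.0863 without other-organ arrays and 0.0847 with the mean of probe sets in classical strains; 0.0686 as median absolute deviation, 0.0702 without other-organ arrays and 0.0717 for genes at 10 or above in BXD; 0.0803 with the mean of probe sets in AXB and BXA; and 0.0569 without other-organ arrays in BXH (3 strains). With any probe set counted, parents differed by 0.5 for 2 members in BXD and 2 in AXB and BXA. No called member changed direction under any alternative run, although 40 of 94 single-gene values lost their call. The cause of these shifts was not tested. The covariates of marker lists and the fit of every probe set were chosen after seeing the data. Cox5a and Atp5g1 kept their call in 8 of 13 alternatives each and Sdhb in 6, and Uqcrc1 kept it in 5 of 11 against BXD and 8 of 11 against AXB and BXA. The number of arrays limits the precision.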

Other observations

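Uqcrq, Cox5b and Atp5c1 also had dim probe sets beside their bright ones. Their mean levels were 3.47, 3.39 and 3.27 for Uqcrq and 4.41 and 3.13 for Cox5b, and the dim probe set of Atp5c1 ran from 3.55 to 4.65. The SDs over classical strains were 0.10, 0.17 and 0.13 for Uqcrq, 0.28 and 0.13 for Cox5b and 0.22 for Atp5c1, against 1.63 and 1.23 for the split Uqcr10 probe sets. These values describe probe sets, and what each of them detects was not tested.

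B6cC3-1/KccJ, which the labels place in no panel, had Uqcr10 at the upper level on both split probe sets (7.06 and 7.35) and at 12.65 on the brightest.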
